A study of Mus musculus with 6 samples.

Results

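The GDNF receptor family was followed in the testis as 8 genes: the receptor kinase gene Ret, the co-receptor genes Gfra1, Gfra2 and Gfra4, the ligand genes Gdnf, Nrtn and Artn, and Ncam1, which encodes an alternative receptor. They were chosen by name, as the family of the receptor that the treatment targets, with earlier results of these data known. All 8 are among the 23361 genes of the deposited table. Polyadenylated RNA of whole testes was sequenced from 3 mice given the inhibitor 1NaPP1-HCl and 3 control mice given vehicle, a mixture of saline, cremophor and ethanol. Both groups were C57BL/6J mice of about 120 days, and every animal, controls included, was homozygous for the V805A substitution in Ret. Injections of 10 microliters per gram of body weight were given daily for 9 days, and testes were taken on day 14, after 5 days without injections. No inhibitor-treated mice without the substitution are among the samples, so effects of the compound on Ret and on other proteins cannot be told apart. Nothing in these data measures Ret kinase activity.

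GDNF is secreted by somatic cells of the testis and acts on the undifferentiated spermatogonia, the small mitotic population that holds the spermatogonial stem cells. The ligand binds a GPI-anchored co-receptor of the GFRα class on the cell surface, and this complex brings together and activates Ret, which signals through docking proteins to the phosphoinositide 3-kinase, SRC and MAP kinase routes. Each ligand has a preferred co-receptor: GDNF binds GFRα1, neurturin (Nrtn) binds GFRα2, artemin (Artn) binds a further member of the class, and GFRα4 is the preferred partner of persephin. NCAM, the product of Ncam1, can bind GDNF together with GFRα1 and signal without Ret.

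The substitution shared by all 6 animals lies in the kinase domain of Ret and makes room for the bulky inhibitor. The reference coding sequence around it is shown because this codon is what ties the compound to the receptor. Codons are counted from 1 at the start codon, the capitals mark the codon that V805A changes, and the sequence is that of the C57BL/6J reference, which has the valine codon GTG there, not of the mutated animals:
Ret codons 798 to 812: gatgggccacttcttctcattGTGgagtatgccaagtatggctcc
In GRCm38, the assembly that is also called mm10, this codon occupies positions 118168317 to 118168319 of chromosome 6, in exon 14 of 20 of an annotated coding transcript (GENCODE M21). The printed stretch crosses the junction to the preceding exon and reads along the reverse strand within chr6:118168296-118169125. The Ret gene runs from 118151745 to 118197718 on that strand. A value per gene covers all of its exons and does not distinguish the mutated from the unmutated codon.

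Library totals ranged from 23144295 to 43127890 fragments assigned to genes, so that 1 CPM, the level of a gene scaled to its library's total, stood for 23.1 to 43.1 fragments. The CPM printed here also carry the scaling factors of the trimmed mean of M values, which were 0.9881 to 1.0181 and are not part of the fragments just given. All 8 genes passed the filter on low counts and were tested among 16658 genes with edgeR's quasi-likelihood test, two-sided, with Benjamini-Hochberg adjustment at a threshold of 0.05. Libraries of the same group were never alike within counting noise. The pairs that include inhibitor mouse 3 had the largest chi-square values, 11.54 and 12.46 per degree of freedom, against 4.09 to 5.83 for the other pairs. The number of genes called depended on that library: it was 2406 without it and 26 with it. Labels do not say whether the mice were littermates or handled together, so p-values measure the spread between these 6 samples.

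Ret was the member that fell. Its RNA stood at 0.487, 0.656 and 0.595 CPM in inhibitor mice 1, 2 and 3, and at 2.28, 2.39 and 1.84 CPM in control mice 1, 2 and 3. All 3 inhibitor mice lay below all 3 controls, and the highest inhibitor value was well under the lowest control value. These levels rested on 14, 15 and 17 fragments in the inhibitor mice and 57, 105 and 54 in the controls. Summed over mice, 46 fragments (exact Poisson 95% interval 33.7 to 61.4) stood against 216 (188.2 to 246.8), intervals that cover counting error only. The group means were 0.579 ± 0.0858 CPM in inhibitor mice and 2.17 ± 0.294 CPM in controls (SD, n = 3 each). Counting alone would give SDs of 0.149 CPM in inhibitor mice and 0.264 CPM in controls, so at this depth the spread between mice was about that of counting. The fitted level was 3.77-fold lower in inhibitor mice (95% interval 2.66 to 5.34), a log2 fold change of −1.91 (SE 0.231, adjusted p = 0.0199, edgeR). Of all tested genes 0.096% passed in the downward direction and 0.156% in either. Without inhibitor mouse 1 or 2 or without control mouse 1 or 2, Ret did not pass (edgeR adjusted p = 0.133, 0.0932, 0.145 and 0.156), while its log2 fold change stayed between −2.01 and −1.80 with any single mouse left out. In whole testis, fewer Ret-expressing cells and less Ret RNA per cell cannot be told apart.

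**Figure D1:**
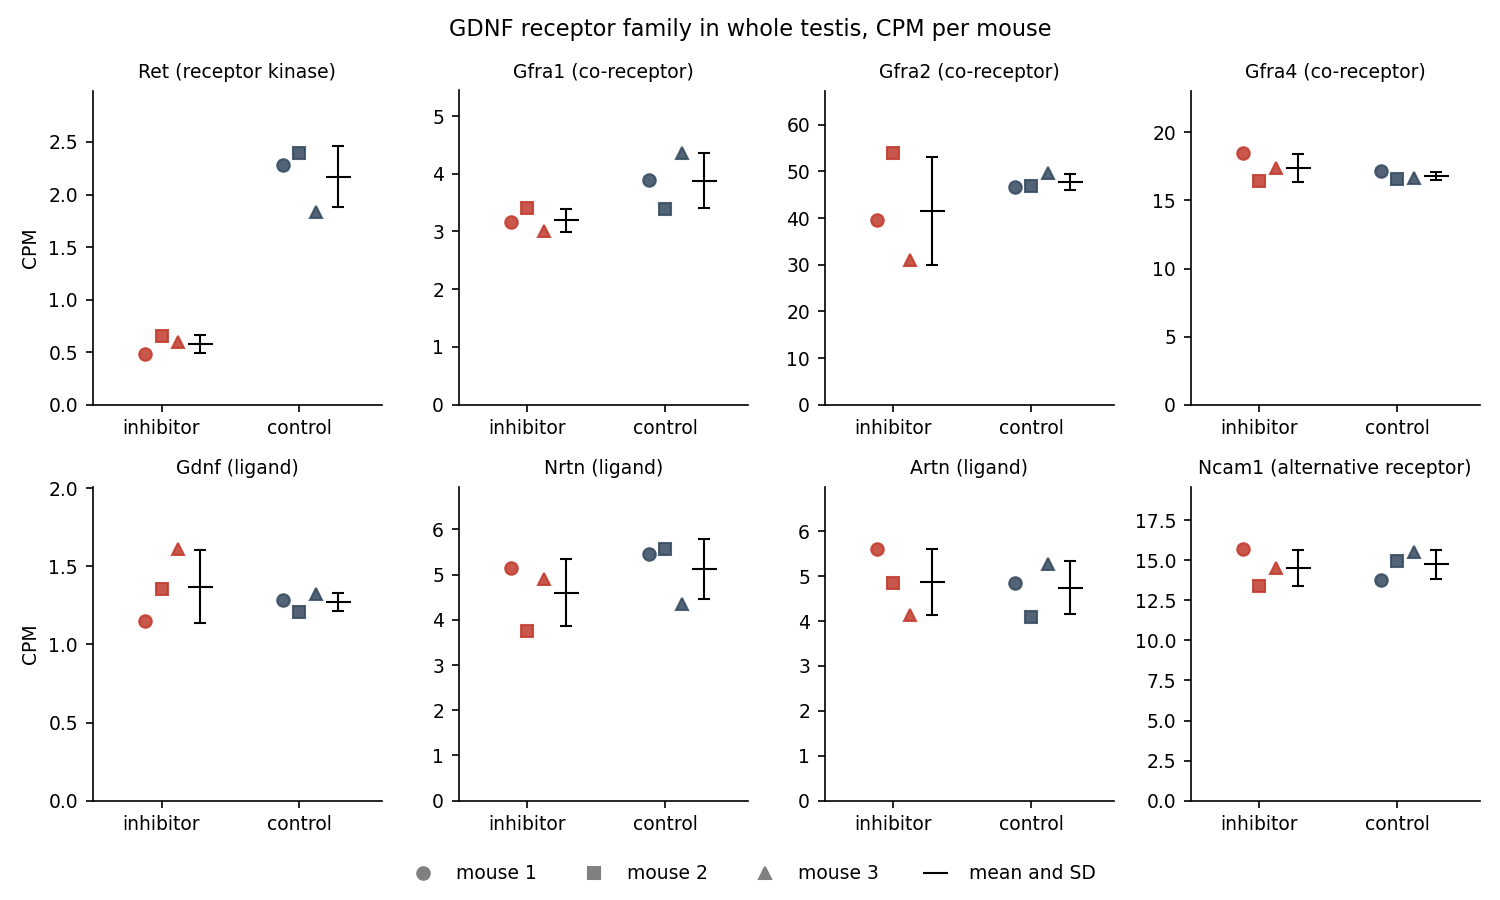
CPM of the 8 genes in each mouse, with 3 inhibitor mice left and 3 control mice right in each panel, and the mean and SD as a bar. Ret is the panel in which the groups do not overlap (0.487 to 0.656 CPM in inhibitor mice, 1.84 to 2.39 CPM in controls), and Gfra2 shows the wide spread of the inhibitor mice.

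Gfra1, whose product is the co-receptor that binds GDNF, did not pass. It stood at 3.16, 3.41 and 3.01 CPM in inhibitor mice 1, 2 and 3, against 3.88, 3.39 and 4.35 CPM in controls 1, 2 and 3. The highest inhibitor mouse overlapped the lowest control by a narrow margin. The log2 fold change was −0.28 (95% interval −0.61 to 0.06, edgeR adjusted p = 0.366), an interval that allows a level up to 1.52-fold lower in inhibitor mice and excludes a fall of the size seen for Ret. Gfra1 lies on chromosome 19 (58235604 to 58455909, GRCm38), where an antisense gene, Gm16277, overlaps 416 nt of its exons. How the authors' counting treated strand is not stated, and fragments of both genes cannot be told apart.

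Gfra2, the co-receptor gene for neurturin, varied more between inhibitor mice than any other member. It stood at 39.5, 53.9 and 30.9 CPM in inhibitor mice 1, 2 and 3, and at 46.7, 46.8 and 49.7 CPM in the controls. The inhibitor mice lay on both sides of the controls, with mouse 3 lowest and mouse 2 highest. The SD of 11.6 CPM in inhibitor mice was far above the 1.27 CPM that counting alone gives, whereas the controls had an SD of 1.71 CPM with 1.24 CPM from counting. The difference between groups did not pass (log2 fold change −0.21, 95% interval −0.71 to 0.29, edgeR adjusted p = 0.641), and it was between −0.44 and −0.04 with single mice left out. Without inhibitor mouse 3 it was −0.04 and without inhibitor mouse 2 it was −0.44.

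Gfra4, the co-receptor gene for persephin, was among the steadiest members. Its level was 18.5, 16.4 and 17.4 CPM in inhibitor mice and 17.1, 16.6 and 16.6 CPM in controls, with overlapping groups. The log2 fold change of 0.05 (95% interval −0.11 to 0.22, edgeR adjusted p = 0.756) allows a level up to 1.17-fold higher or 1.08-fold lower in inhibitor mice. In contrast to this co-receptor, its ligand gene Pspn was barely detected, with 1 fragment in each inhibitor mouse and 0, 4 and 1 in the controls.

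The ligand genes gave no difference past the threshold. Gdnf, on chromosome 15, was at 1.15, 1.36 and 1.61 CPM in inhibitor mice 1, 2 and 3 and at 1.28, 1.21 and 1.33 CPM in controls. Inhibitor mouse 3 was highest and inhibitor mouse 1 lowest, so the controls lay within the range of the inhibitor mice. Its log2 fold change was 0.11 (95% interval −0.35 to 0.58, edgeR adjusted p = 0.827), a wide interval that rests on 110 fragments in all inhibitor mice and 124 in all controls. It turned to −0.026 without inhibitor mouse 3.

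Nrtn, the ligand gene for GFRα2, was at 5.14, 3.76 and 4.90 CPM in inhibitor mice and at 5.45, 5.56 and 4.35 CPM in controls. The groups overlapped, with inhibitor mouse 2 lowest of the 6. The log2 fold change was −0.15 (95% interval −0.49 to 0.19, edgeR adjusted p = 0.654). Artn was at 5.60, 4.86 and 4.13 CPM in inhibitor mice and at 4.85, 4.10 and 5.27 CPM in controls, likewise with overlap. Its log2 fold change was 0.04 (95% interval −0.29 to 0.38, edgeR adjusted p = 0.918).

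Ncam1 was at 15.7, 13.4 and 14.5 CPM in inhibitor mice and at 13.8, 14.9 and 15.5 CPM in controls. The groups covered nearly the same range. The log2 fold change was −0.02 (95% interval −0.22 to 0.17, edgeR adjusted p = 0.929). The antisense gene Gm11149 shares 417 nt of exon with Ncam1 and is itself in the table, so the division of fragments between these genes is uncertain.

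Over the family, 1 of 8 members passed, and the same 1 of 8 had groups that did not overlap, where 22.9% of all tested genes had no overlap and 11.9% were lower without overlap. Estimates were lower in 5 members and higher in 3. The median log2 fold change was −0.09 over the 8 members and −0.02 over the 7 genes other than Ret, beside −0.004 over all tested genes. For the 7 others the edgeR adjusted p values ranged from 0.366 to 0.929.

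**Figure D2:**
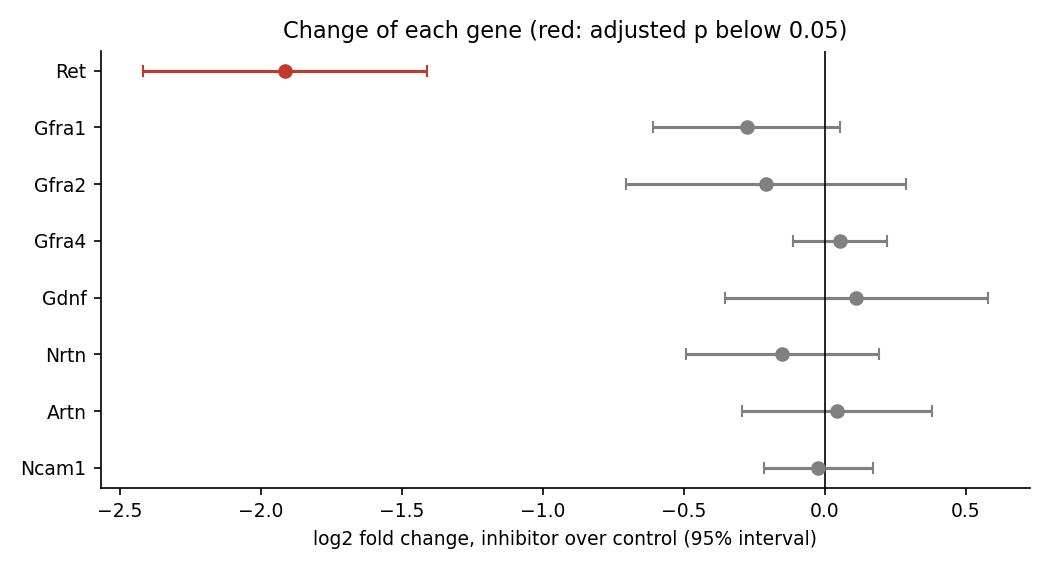
Fitted log2 fold change of each gene, inhibitor over control, with its 95% interval. Ret lies at −1.91 with an interval of −2.42 to −1.41, and the intervals of the other 7 genes all include 0.

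Levels between genes were compared per transcript length, in the authors' FPKM. Gfra2 and Gfra4 were the most abundant family members: Gfra4 averaged 14.05 ± 0.839 FPKM and Gfra2 12.5 ± 3.48 FPKM in inhibitor mice, and Gfra2 averaged 14.4 ± 0.528 FPKM and Gfra4 13.6 ± 0.305 FPKM in controls (SD, n = 3 each). The ranges of these genes overlapped in inhibitor mice, and in controls they did not. Nrtn followed at 5.50 ± 0.883 FPKM in inhibitor mice and 6.11 ± 0.788 FPKM in controls. Artn (2.42 ± 0.360 FPKM in inhibitor mice, 2.35 ± 0.300 FPKM in controls) and Ncam1 (2.35 ± 0.176 FPKM in inhibitor mice, 2.40 ± 0.102 FPKM in controls) came next, and their ranges overlapped in both groups.

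Both parts of the GDNF receptor and GDNF itself were at the low end. Gfra1 averaged 1.04 ± 0.0646 FPKM in inhibitor mice and 1.26 ± 0.159 FPKM in controls. Gdnf averaged 0.407 ± 0.0697 FPKM in inhibitor mice and 0.377 ± 0.0188 FPKM in controls. Ret was lowest in both groups, at 0.0883 ± 0.00697 FPKM in inhibitor mice and 0.298 ± 0.0400 FPKM in controls, and its range lay below that of Gdnf in both. Of the summed FPKM of the 3 co-receptor genes, Gfra1 held 3.63% to 4.02% in inhibitor mice and 3.86% to 4.74% in controls. Nrtn exceeded Gdnf 11.2- to 18.1-fold in FPKM in inhibitor mice and 13.2- to 18.5-fold in controls.

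**Figure D3:**
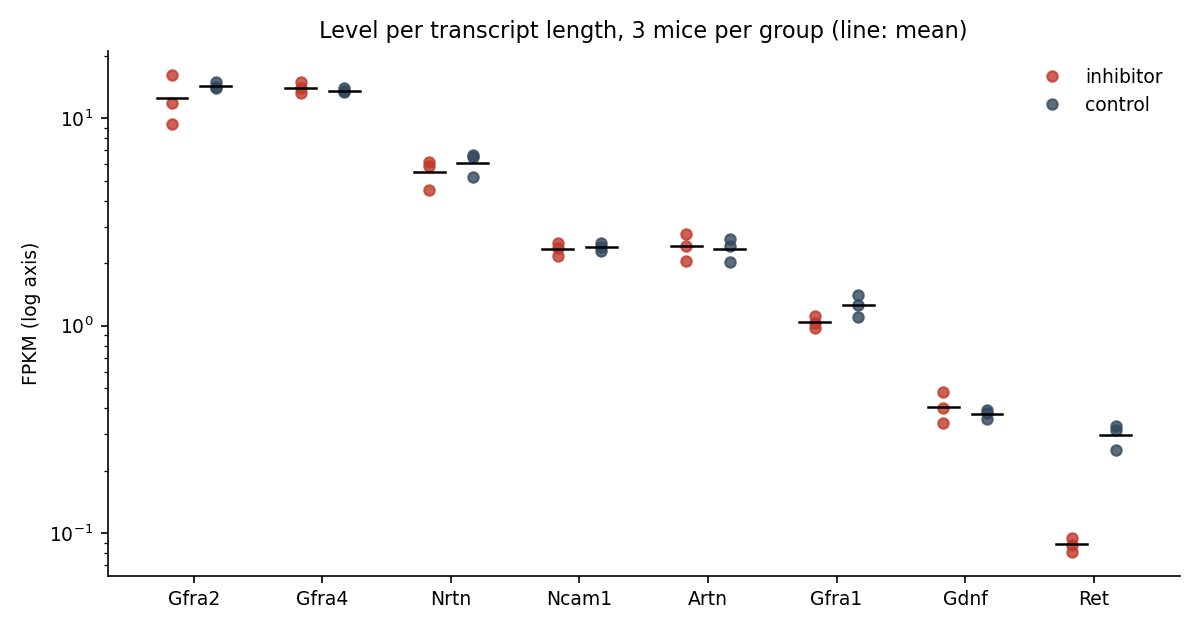
FPKM on a log axis for the 8 genes, ordered by their mean in controls, with the 3 inhibitor mice left of the 3 control mice for each gene and lines at the means. The members span from about 14 FPKM for Gfra2 and Gfra4 to 0.0883 FPKM for Ret in inhibitor mice.

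The balance within the GDNF receptor was read as Ret against Gfra1 in the same mouse. In log2 of Ret fragments over Gfra1 fragments, with 0.5 fragments added to each, inhibitor mice 1, 2 and 3 had −2.66, −2.34 and −2.31, and controls 1, 2 and 3 had −0.76, −0.50 and −1.24. The groups did not overlap, and the ratio averaged −2.43 ± 0.19 in inhibitor mice and −0.83 ± 0.37 in controls (SD, n = 3 each). The difference of −1.60 had p = 0.1 in an exact two-sided permutation test, the smallest value that 3 against 3 mice allow. Per transcript length, Gfra1 exceeded Ret 11.1- to 12.6-fold in inhibitor mice and 3.35- to 5.60-fold in controls.

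Both genes are known from undifferentiated spermatogonia, whose markers also stood lower in inhibitor mice, so they were set against these markers in the same mouse. The list was drawn up with earlier results of these data known. Of its 12 genes, 11 were tested, 10 had lower estimates and 3 fell, beside 0.096% of all tested genes. The 3 were Sox3 (log2 fold change −1.50), Lin28a (−1.13) and Zbtb16 (−0.99), with edgeR adjusted p of 0.0319, 0.0484 and 0.0319. The summed level of the list was 54.0 to 58.9 CPM in inhibitor mice and 75.3 to 78.6 CPM in controls, and no member was at 0 in all libraries. The largest part of this sum was Id4, at 33.2 CPM in inhibitor mice and 35.6 CPM in controls. Relative to the mean log2 CPM of the 11 tested markers, Ret stood at −1.81, −1.66 and −1.79 in inhibitor mice 1, 2 and 3 and at −0.62, −0.62 and −0.76 in controls 1, 2 and 3. Ret stood lower against the mean of the markers too, by −1.09 without overlap (exact two-sided permutation p = 0.1, the smallest possible). Gfra1 stood at 0.74, 0.61 and 0.43 relative to the same markers in inhibitor mice, and at 0.13, −0.12 and 0.46 in controls. These overlapped, with a difference of 0.43 (exact two-sided permutation p = 0.2). With the median of the list in place of its mean the differences were −0.56 for Ret and 0.96 for Gfra1, both without overlap between groups (exact two-sided permutation p = 0.1). The values of Gfra1 against the mean also did not overlap without inhibitor mouse 3 (0.52, exact permutation p = 0.2) or without control mouse 3 (0.59, exact permutation p = 0.1). The markers differed among themselves, with log2 fold changes from −1.66 for Sall4 and −1.50 for Sox3 to −0.10 for Id4 and 0.11 for Utf1. The 95% intervals of Sall4, Sox3, Glis3 (−1.29) and Lin28a (−1.13) overlap that of Ret. The part of the number of undifferentiated spermatogonia in the fall of Ret was not tested.

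**Figure D4:**
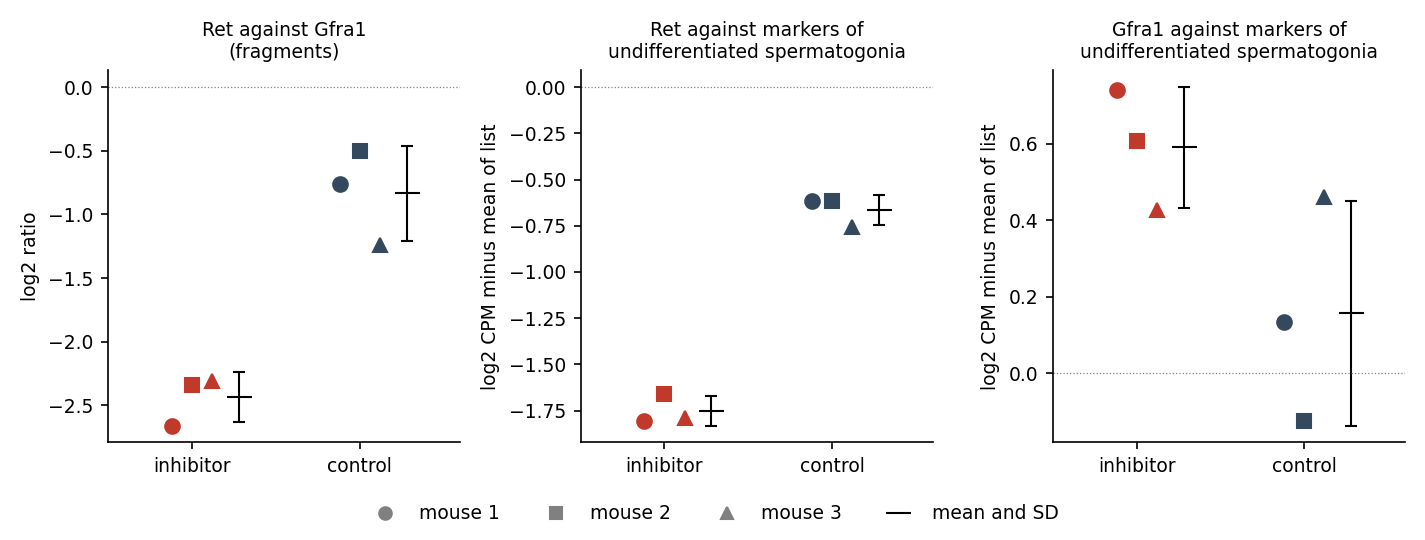
Ret against Gfra1 as a log2 ratio of fragments, and Ret and Gfra1 as log2 CPM minus the mean of 11 markers of undifferentiated spermatogonia, for 3 inhibitor mice left and 3 controls right, with mean and SD. Ret lies lower in all 3 inhibitor mice than in all 3 controls in both Ret panels, and Gfra1 against the mean of the markers overlaps between groups.

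Other genes of the pathway were examined in 4 lists, all drawn up with earlier results of these data known. Among the other ligands, receptors and surface partners of Ret, 0 of 6 tested genes passed in edgeR, with a median log2 fold change of −0.12. DESeq2 also passed 0, with no adjusted p for 1 of the 6 genes. At an unadjusted p threshold of 0.05 in edgeR, 2 of 6 genes were lower and 0 higher, where 8.48% of all tested genes were lower (1412) and 9.43% higher (1571). The 2 lower genes were Sorl1, a sorting receptor for GDNF (−0.37, edgeR adjusted p = 0.123), and Ptprf, a receptor tyrosine phosphatase (−0.23, edgeR adjusted p = 0.123). The 3 genes of this list that were too low to test were Pspn, Gdf15 and Gfral. Gfral, the brainstem co-receptor through which GDF15 acts on Ret, had 0 fragments in all 6 libraries.

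Of the Ret adaptors and docking proteins, 1 of 17 tested genes fell, beside 0.096% of all tested genes, none rose, and the median was −0.09. The gene was Kif26a, an unconventional kinesin that binds GRB2 and restrains GDNF-Ret signalling in enteric neurons. Its fall was known when the list was drawn up. Kif26a stood at 2.45 ± 0.197 CPM in inhibitor mice and 5.66 ± 0.373 CPM in controls (SD, n = 3 each), with 64, 58 and 74 fragments against 138, 267 and 158. The log2 fold change was −1.21 (SE 0.142, edgeR adjusted p = 0.0199), without overlap between groups. In this list 6 of 17 tested genes were lower without overlap, beside 11.9% of all tested genes. The adaptor gene itself, Grb2, had a log2 fold change of −0.11 (edgeR adjusted p = 0.515).

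Of the kinases and GTPases downstream of Ret, 0 of 24 tested genes passed in edgeR, and the median was −0.12. DESeq2 also passed 0, with no adjusted p for 2 of the 24 genes. At an unadjusted p threshold of 0.05 in edgeR, 2 of 24 genes were lower, about the 8.48% of all tested genes. The 2 lower genes were Map2k2 (−0.14, edgeR adjusted p = 0.181) and Braf (−0.14, edgeR adjusted p = 0.227), both of the MAP kinase cascade. These genes are expressed in most cells of the testis.

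Of the GDNF-induced genes of spermatogonia, 1 of 10 tested genes fell, beside 0.096% of all tested genes, and none rose, with a median of −0.20. It was Ccnd2, which encodes the G1 cyclin D2, at 5.28 ± 0.220 CPM in inhibitor mice and 8.71 ± 0.425 CPM in controls (log2 fold change −0.73, SE 0.110, edgeR adjusted p = 0.0319). At an unadjusted p threshold of 0.05 in edgeR, 3 of 10 genes were lower, beside 8.48% of all tested genes: Ccnd2, Pou3f1 (log2 fold change −0.98) and Mycn (−0.42). The last pair did not pass after adjustment (edgeR adjusted p = 0.203 and 0.238). The other 7 had log2 fold changes from −0.80 for Eomes to 0.07 for Bcl6b, with Etv5 at −0.13 and Lhx1 at −0.17 (edgeR adjusted p from 0.323 to 0.841). Pou3f1, Mycn, Eomes, Bcl6b, Etv5 and Lhx1 encode transcription factors. Egr2, an early growth response gene too low to test, had 3, 4 and 4 fragments in inhibitor mice and 13, 15 and 9 in controls.

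All 4 lists had medians below the −0.004 of all tested genes, as did markers of several cell types outside the pathway, such as peritubular myoid cells (−0.23), endothelial cells (−0.15) and Leydig cells (−0.14). In summed CPM, inhibitor mice lay below controls without overlap for the surface partners (146 to 157 against 159 to 168) and the adaptors (370 to 398 against 402 to 410). The kinases and GTPases overlapped (1050 to 1130 against 1120 to 1130). The GDNF-induced genes were lower without overlap (89.3 to 97.5 against 104 to 107). Most of this sum was Id4 (33.2 CPM in inhibitor mice, 35.6 CPM in controls) and Etv5 (28.7 CPM in inhibitor mice, 31.4 CPM in controls). Neither of these genes passed (edgeR adjusted p = 0.520 and 0.612). Id4 and Tspan8 stand both in the list of GDNF-induced genes and among the markers of undifferentiated spermatogonia. Without inhibitor mouse 3, when 14.3% of all tested genes passed, 1, 2, 3 and 4 genes of the lists passed in the order given above, and 6 of the markers of undifferentiated spermatogonia. For the first 3 lists, with 6, 17 and 24 genes tested in all mice, these shares are near that background. Without inhibitor mouse 1 or 2 or control mouse 1 or 2, 0 genes passed in the whole table in edgeR, Kif26a and Ccnd2 included, while at an unadjusted p threshold of 0.05 between 945 and 1085 genes were lower and between 977 and 1124 higher.

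**Figure D5:**
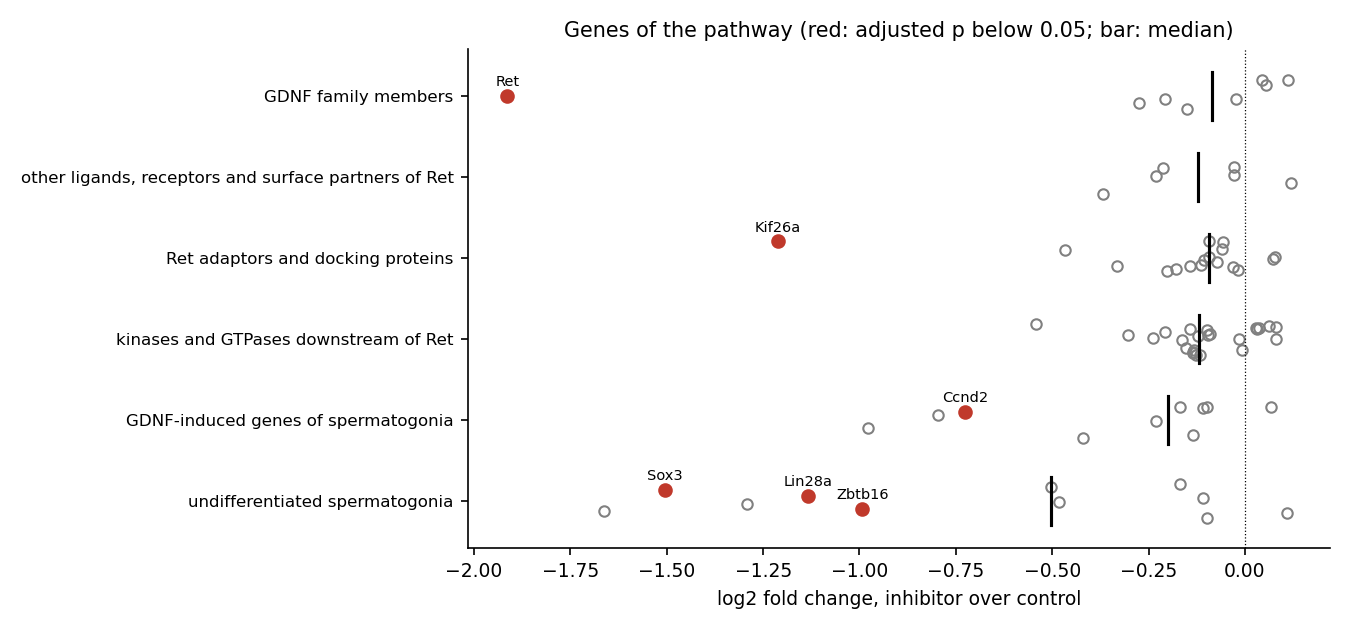
Log2 fold change of each tested gene, inhibitor over control, by list, with genes past the adjusted p threshold of 0.05 in red and named, and a bar at each list's median. Ret (−1.91), Kif26a (−1.21) and Ccnd2 (−0.73) are the red points of the family and pathway lists, and Sox3, Lin28a and Zbtb16 those of the undifferentiated spermatogonia.

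Markers of the other cell types that could supply these RNAs were read in the same libraries, and 0 of their genes passed in edgeR. In DESeq2, 1 gene each of the spermatocyte, spermatid and macrophage lists passed as higher and 1 of the differentiating spermatogonia as lower. Of all 16658 tested genes, DESeq2 passed 364 as higher and 167 as lower. It gave no adjusted p for 5 of 7 tested nerve and Schwann cell markers and 3 of 5 endothelial markers. The same held for 2 genes each of the differentiating spermatogonia, Sertoli cells and macrophages and 1 of the peritubular myoid cells. At an unadjusted p threshold of 0.05 in edgeR, 4 genes were lower and 1 higher among differentiating spermatogonia, 1 lower and 4 higher among spermatocytes, and at most 3 in any other list, beside 8.48% lower and 9.43% higher among all tested genes. For Sertoli cells, a source of GDNF, the 10 markers summed to 1090 to 1400 CPM in inhibitor mice and 1220 to 1280 CPM in controls, and all 10 had lower estimates (median log2 fold change −0.07). Peritubular myoid cells, another source of GDNF, had 323 to 339 CPM in inhibitor mice and 320 to 374 CPM in controls over 6 markers. Most of this sum was Actg2, whose estimate was higher (196.4 CPM in inhibitor mice and 185.2 CPM in controls), while the other 5 markers had lower estimates. Nerve fibres and Schwann cells, which can carry Ret, GFRα receptors and NCAM outside the germ line, had 54.2 to 56.3 CPM in inhibitor mice and 50.6 to 58.3 CPM in controls over 10 markers. Leydig cells had 888 to 1060 CPM in inhibitor mice and 955 to 1200 CPM in controls, and endothelial cells 28.9 to 37.2 CPM in inhibitor mice and 35.9 to 38.3 CPM in controls.

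Summed levels of 4 cell type lists were higher in inhibitor mice without overlap, whereas that of the undifferentiated spermatogonia, given above, was lower. Macrophage markers summed to 422 to 454 CPM in inhibitor mice and 379 to 389 CPM in controls, spermatocyte markers to 5800 to 6110 CPM in inhibitor mice and 5310 to 5600 CPM in controls, and spermatid markers to 13500 to 15200 CPM in inhibitor mice and 12500 to 13100 CPM in controls. Most of the macrophage sum was Aif1, at 367.5 CPM in inhibitor mice and 319.5 CPM in controls, and 4 of those 6 markers had lower estimates (list median log2 fold change −0.02). Markers of differentiating spermatogonia summed to 605 to 643 CPM in inhibitor mice and 591 to 599 CPM in controls, although 7 of those 8 genes had lower estimates. Most of that sum was Dmrtb1, at 558.5 CPM in inhibitor mice and 518.2 CPM in controls, the only gene of the list with a higher estimate. The part of these cell types in the values of the family was not tested. The genes with the smallest p of these lists were Dnmt3b (log2 fold change −0.53), Pgk2 (0.19), Prm2 (0.16), Amh (−0.65), Mylk (−0.22), Nr5a1 (−0.17), S100b (0.61), Vwf (−0.15) and Aif1 (0.20), with edgeR adjusted p from 0.0625 to 0.357.

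The genes outside the family whose pattern over the 6 libraries was closest to that of Ret were found by the root-mean-square difference of log2 CPM, each gene centred on its own mean, among 14628 tested genes with a symbol. The closest was Prtg, which encodes protogenin, a membrane protein with immunoglobulin domains, at 0.14. It had 11, 14 and 14 fragments in inhibitor mice and 41, 73 and 43 in controls. Sox3 (0.26), Kif26a (0.32), Sall4 (0.34), which encodes a zinc finger factor of undifferentiated spermatogonia, and Asphd2 (0.34) came next. By comparison, Ret itself deviated from its own mean by 0.91 on this scale. The first 3 of these genes passed in edgeR, while Sall4 (log2 fold change −1.66, edgeR adjusted p = 0.0826) and Asphd2 (−1.87, edgeR adjusted p = 0.108) did not. Genes picked for a pattern close to that of Ret in the same 6 libraries are lower in inhibitor mice by that choice. The fold changes and calls of the genes named here therefore describe the selection and are not a separate test.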

How the data were processed

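The expected counts are fragments per gene and library as deposited by the authors; 98.8% of 140166 values were whole within 1e-06, and all were rounded. FPKM values were deposited by the authors in the same table. Cutadapt 1.8, TopHat2 2.0.13, Cuffdiff 2.2.1 and mm10 are named per the submitters' processing notes, without roles; the sources used here do not state annotation or strand setting. No value of the 8 genes carried the failed status found in 9 others.

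Genes were tested with edgeR 4.0.16 (filterByExpr, TMM, robust quasi-likelihood; R 4.3.3); intervals use the moderated degrees of freedom. Log2 CPM used a prior count of 2. Positions came from GENCODE M21. The fit was checked on simulated data. Alternatives were RLE or total scaling, DESeq2 1.42.0, limma 3.58.1 on counts or FPKM, other filters, a length and GC offset, a block for mouse number, and each mouse left out. Members and lists were chosen with earlier results of these data known. Named were all members, the genes of each list past the threshold or with the smallest p, and the 5 genes closest to Ret. Grb2, Pou3f1, Mycn, Eomes, Etv5, Bcl6b, Lhx1, Id4, Utf1, Glis3, Actg2 and Dmrtb1 were named after their values were seen. The same holds for the genes too low to test. A planned comparison of protein sequences was not made, as no protein table was used here.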

Additional observations from a re-analysis of the deposited data

How the results depend on the processing

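Ret was lower in all 16 alternatives with an adjusted p and past the threshold in 9 of them (adjusted p from 4.9e-04 to 0.168). It did not pass with limma-voom (−1.90), with limma on log2(FPKM + 1) (−0.25) or on log2(FPKM + 0.1) (−1.08), scales on which the added constant shrinks the change of so low a gene, or without 4 of the 6 mice (−2.01 to −1.80 over all single mice left out). In those alternatives 0 members passed, and 0 to 1 with single mice left out. DESeq2 gave Ret −1.91 with an unadjusted p of 6.9e-08 and no adjusted p, as for 4523 genes, so its call is not counted. For the 7 other members, 109 of 116 alternatives kept direction and call, none passed, and 7 reversed an estimate near 0. With the length and GC offset Nrtn was at 0.0086 and Ncam1 at 0.084, and with single mice left out Gdnf ranged from −0.026 to 0.23, Artn from −0.074 to 0.15 and Ncam1 from −0.081 to 0.031. The cause was not tested. Calls over all genes were 26, against 531 with DESeq2, 2 with limma-voom, 0 and 1 with limma on log2(FPKM + 1) and log2(FPKM + 0.1), 115 without a filter, 10 with at least 50 counts in 3 libraries, and 0 to 2406 with single mice left out. At an unadjusted p threshold of 0.05, limma on log2(FPKM + 1) had 1171 genes lower and 1617 higher. Library totals alone gave 4 higher and 23 lower, and the length and GC offset 14 higher and 12 lower, against 10 higher and 16 lower. With the mouse number as a replicate block 5 genes passed, Ret among them (−1.90, edgeR adjusted p = 0.0324). The labels do not say that the numbers pair the mice. Deviations of same-numbered mice correlated at 0.06, −0.12 and −0.02 over 13734 genes, and not every mouse correlated best with its own number. So few mice cannot exclude a pairing. Alternatives for the pathway lists were chosen after the data were seen; without inhibitor mouse 3 the passing genes numbered 1, 2, 3 and 4 in the 4 lists and 6 among the markers of undifferentiated spermatogonia. DESeq2 passed 0, 1, 0 and 1 in these lists and 2 of the markers, beside 531 of all 16658 tested genes. It gave no adjusted p for 1, 4, 2 and 5 tested genes of these lists and for 8 of the 11 tested markers. Such genes could not pass. By CPM instead of FPKM, 8 of 16 ranks of the members moved, since CPM takes no account of length. With 14 to 17 fragments per inhibitor mouse, depth limits the precision of Ret.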

Other observations

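The link between fragments and FPKM was not the same for Ret in all libraries. The number of fragments per FPKM unit, taken relative to that of Gdnf in the same library, was 1.77, 2.04 and 2.01 for Ret in inhibitor mice 1, 2 and 3, and 2.16 in each control. For Nrtn, Artn, Gfra1 and Gfra2 this quantity was identical in all 6 libraries to 3 decimals, for Gfra4 it was 0.367 or 0.368, and for Ncam1 it ran from 1.83 to 1.85 in inhibitor mice and from 1.78 to 1.84 in controls. A lower value gives more FPKM per fragment, so the fall of Ret was smaller in mean FPKM (0.0883 in inhibitor mice, 0.298 in controls) than in mean CPM (0.579 in inhibitor mice, 2.17 in controls). The quantity rests on 14 to 17 fragments of Ret in each inhibitor mouse.

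Among genes too low to test, Nanos2, which encodes an RNA-binding protein of undifferentiated spermatogonia, had 0 fragments in each inhibitor mouse and 3 in each control. The gene T, which encodes brachyury, had 0 fragments in each inhibitor mouse and 1 in each control. Both were named after their values were seen, and counts this low are at the floor of detection. Not all untested genes of the lists were lower. Dok5 had 6, 3 and 6 fragments in inhibitor mice and 3, 2 and 0 in controls, and Th had 6, 0 and 3 against 0, 1 and 2. How often such patterns occur among all untested genes was not counted.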
